A study of Mus musculus with 12 samples.

Results

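The genes described here encode the machinery that copies nuclear DNA: the origin recognition complex, the factors that load and activate the MCM helicase, the DNA polymerases with their sliding clamp, and the enzymes that supply nucleotides and seal the new strands. The list held 41 such genes, chosen by name from what their proteins do. Of these, 39 had a named probe set on the array and all 39 were among the 14620 genes tested. Orc5 and Mcm7 had no named probe set, so their RNA was not analysed here. RNA was measured on 12 arrays, from haematopoietic stem cells (HSC) and multipotent progenitors (MPP) of 6 mice.

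All cells came from bone marrow of untreated mice in steady state, and each mouse gave 1 HSC and 1 MPP array. The 3 control mice (mice 3, 12 and 64, here WT) were Nfat5 +/+ Vav-Cre, and the 3 deficient mice (mice 2, 11 and 70, here KO) were Nfat5 fl/fl Vav-Cre. NFAT5 is a transcription factor best known for the response to hypertonic stress. The Vav promoter drives Cre recombinase across the blood-forming system, so the floxed allele can be deleted in many blood lineages and not in HSC alone, and the controls carried Cre too. HSC were sorted as CD48- CD150+ cells and MPP as CD48+ CD150- cells, both within the LSK gate that encloses the early progenitors. The labels state no age for the mice.

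Replication begins when the origin recognition complex marks sites on the chromosome and, with Cdc6 and Cdt1, loads the ring of MCM2 to MCM7 around DNA in G1. In S phase Cdc45 and the GINS complex turn that ring into a running helicase, primase and polymerase alpha start new strands, and polymerases delta and epsilon extend them on the PCNA clamp. Most HSC of an adult are quiescent, outside the cell cycle, while MPP divide more often. Many replication genes are transcribed in bursts at the G1 to S transition by E2F factors, so their RNA in a sorted population is often read as a trace of how many cells are cycling.

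Because the genes are commonly described as a co-regulated set, the DNA just upstream of their start sites is shown first. Promoters of 33 of the 41 genes were found by symbol in RefSeq (GRCm38.p6), and 5 are printed for genes that were lower in HSC: Mcm5, Mcm6 and Cdc6, which hold E2F-type letters, and Rpa2 and Rrm2, which do not. Each run is the 250 bases before the annotated start, 5′ to 3′ on the strand of the gene. Capitals mark E2F-type words (TTTCCCGC, TTTCGCGC, TTTGCCGC or TTTGGCGC on either strand) and the CCAAT box (CCAAT on either strand); a match is a match of letters and not a measured binding site. The regions are chr8:75109259-75109508 on the plus strand for Mcm5, chr1:128359706-128359955 on the minus strand for Mcm6, chr11:98907901-98908150 on the plus strand for Cdc6, chr4:132768110-132768359 on the plus strand for Rpa2 and chr12:24708004-24708253 on the plus strand for Rrm2.
Mcm5: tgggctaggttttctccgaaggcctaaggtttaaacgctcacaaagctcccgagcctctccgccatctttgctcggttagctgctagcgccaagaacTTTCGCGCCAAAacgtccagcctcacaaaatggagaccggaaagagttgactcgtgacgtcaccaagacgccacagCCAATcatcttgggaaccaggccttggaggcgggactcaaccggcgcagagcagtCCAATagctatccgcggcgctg
Mcm6: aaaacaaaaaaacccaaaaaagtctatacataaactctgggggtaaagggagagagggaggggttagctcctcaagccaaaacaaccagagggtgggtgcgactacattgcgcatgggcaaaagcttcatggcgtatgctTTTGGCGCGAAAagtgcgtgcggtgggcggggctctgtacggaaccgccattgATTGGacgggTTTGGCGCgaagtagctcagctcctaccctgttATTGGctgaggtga
Cdc6: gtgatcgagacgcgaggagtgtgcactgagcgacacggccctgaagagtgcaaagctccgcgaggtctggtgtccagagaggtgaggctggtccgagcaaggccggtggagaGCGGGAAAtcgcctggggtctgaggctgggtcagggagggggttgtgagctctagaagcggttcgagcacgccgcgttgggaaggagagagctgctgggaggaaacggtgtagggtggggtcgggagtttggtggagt
Rpa2: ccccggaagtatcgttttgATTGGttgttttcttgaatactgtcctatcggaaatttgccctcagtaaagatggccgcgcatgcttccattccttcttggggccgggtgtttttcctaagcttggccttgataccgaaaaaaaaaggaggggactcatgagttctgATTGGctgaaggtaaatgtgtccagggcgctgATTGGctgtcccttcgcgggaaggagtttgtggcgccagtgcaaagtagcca
Rrm2: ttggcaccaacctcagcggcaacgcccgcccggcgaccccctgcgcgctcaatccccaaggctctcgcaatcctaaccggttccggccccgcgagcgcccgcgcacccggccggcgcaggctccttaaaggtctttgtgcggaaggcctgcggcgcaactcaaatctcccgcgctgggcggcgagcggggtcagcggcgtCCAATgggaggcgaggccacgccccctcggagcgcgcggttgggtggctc

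In the Mcm5 promoter 2 E2F-type words overlapped, the first from base -153 to -146 and the other, on the opposite strand, from -149 to -142. In the Mcm6 promoter a similar overlapping pair lay between -110 and -99 and another word at -47 to -40. The Cdc6 promoter held 1 word, at -138 to -131. Over windows of 300 bases, from 250 before to 50 after the start, 14 of 40 promoters of the replication genes (35%) held an E2F-type word, against 744 of 32851 promoters in the table (2.26%) and 3.45% of the promoters of the genes tested. The CCAAT box stood in 23 of the 40 (57.5%) and in 37.4% of all promoters. An E2F-type word overlapped a CCAAT box in 1 of the 40 promoters, that of Mcm7.

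HSC and MPP matched their labels on the genes of the sort, since Slamf1, which encodes CD150, had a mean log2 signal of 8.04 in WT HSC and 5.80 in WT MPP, and Cd48 had 5.74 and 8.55. Nfat5 signal was lower in KO than in WT, at 7.69 ± 0.31 against 8.60 ± 0.36 in HSC and 7.16 ± 0.25 against 8.03 ± 0.24 in MPP (log2, mean ± SD, n = 3 mice each), with no overlap in either population and a two-sided exact permutation p of 0.1, the smallest that 3 against 3 allows. The sources used here do not say where the Nfat5 probes lie relative to the deleted part. Array medians ran from 5.81 to 5.91. The noisiest array was HSC from KO mouse 2, whose deviations from the group mean had an SD of 0.438 log2, against 0.276 to 0.378 on the other 11 arrays. Markers of other blood cells were measured too. B cell markers (6 of 7 measured) averaged 5.70 to 6.01 on the HSC arrays and 6.55 to 7.15 on the MPP arrays, monocyte and macrophage markers (6 of 7) 5.39 to 6.42 and 6.62 to 6.86, while mature neutrophil markers (8 of 8) ranged from 5.64 to 8.22 and from 4.64 to 7.24. In each of these 3 lists the ranges of WT and KO overlapped within a population. T and NK cell markers (7 of 7) averaged 4.87 to 4.94 in WT HSC against 5.26 to 5.42 in WT MPP, and overlapped in KO, at 5.10 to 5.25 against 5.18 to 5.32. Within that list Nkg7 had a mean of 5.94 in WT HSC and 8.66 in WT MPP. In the same order Cd3e had 5.15 and 5.15, Cd3g 3.32 and 3.45, Cd4 6.31 and 6.40 and Cd8a 5.62 and 5.67. Ncr1 had 4.21 and 4.14 and Klrb1c 3.83 and 3.74. Within the monocyte list Csf1r and Ccr2 were lower in HSC over both genotypes, at -0.60 (limma adjusted p = 0.0405) and -2.28 (0.00474), while Lyz2 had 0.46 and Adgre1 -0.042. Ctss had a mean of 7.41 in WT HSC and 8.57 in WT MPP, and of 7.24 and 8.39 in KO. Ly86 had 4.54 and 6.28 in WT, and 4.73 and 5.44 in KO. Within the B cell list Ebf1 had 5.88 in WT HSC and 8.30 in WT MPP, Vpreb1 6.73 and 8.73 and Cd79a 5.72 and 6.73. Cd79b had 6.61 and 7.30, Pax5 5.42 and 5.25 and Ms4a1 4.86 and 4.81. The means of the B cell and monocyte lists moved with the difference between HSC and MPP described next. So did the mean of Kit, Cd34 and Ptprc (3 of 4 compartment markers), at 8.95 to 9.29 in WT HSC and 9.54 to 10.13 in WT MPP. In KO it was 9.56 to 9.80 and 9.96 to 10.14. Of these genes Cd34 had 9.08 in WT HSC and 11.14 in WT MPP, Ptprc 7.83 and 8.28 and Kit 10.44 and 10.20. The mean of the T and NK cell list moved with the difference between HSC and MPP in WT. The part of these lists in that difference was not tested.

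As a group, the replication genes had a lower mean signal in HSC than in MPP, in WT and in KO. The mean log2 signal of the 39 genes was 7.71, 7.72 and 7.51 in HSC of WT mice 3, 12 and 64, and 7.66, 7.73 and 7.77 in HSC of KO mice 2, 11 and 70. In MPP the same means were 8.44, 8.39 and 8.43 in WT and 8.37, 8.38 and 8.27 in KO. All 6 HSC arrays lay below all 6 MPP arrays, whereas the mean over all genes tested was 6.79 in WT HSC, 6.81 in KO HSC, 6.82 in WT MPP and 6.81 in KO MPP. The arrays hold bulk RNA, so fewer cells in S phase and less of each RNA per cell cannot be told apart.

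**Figure D1:**
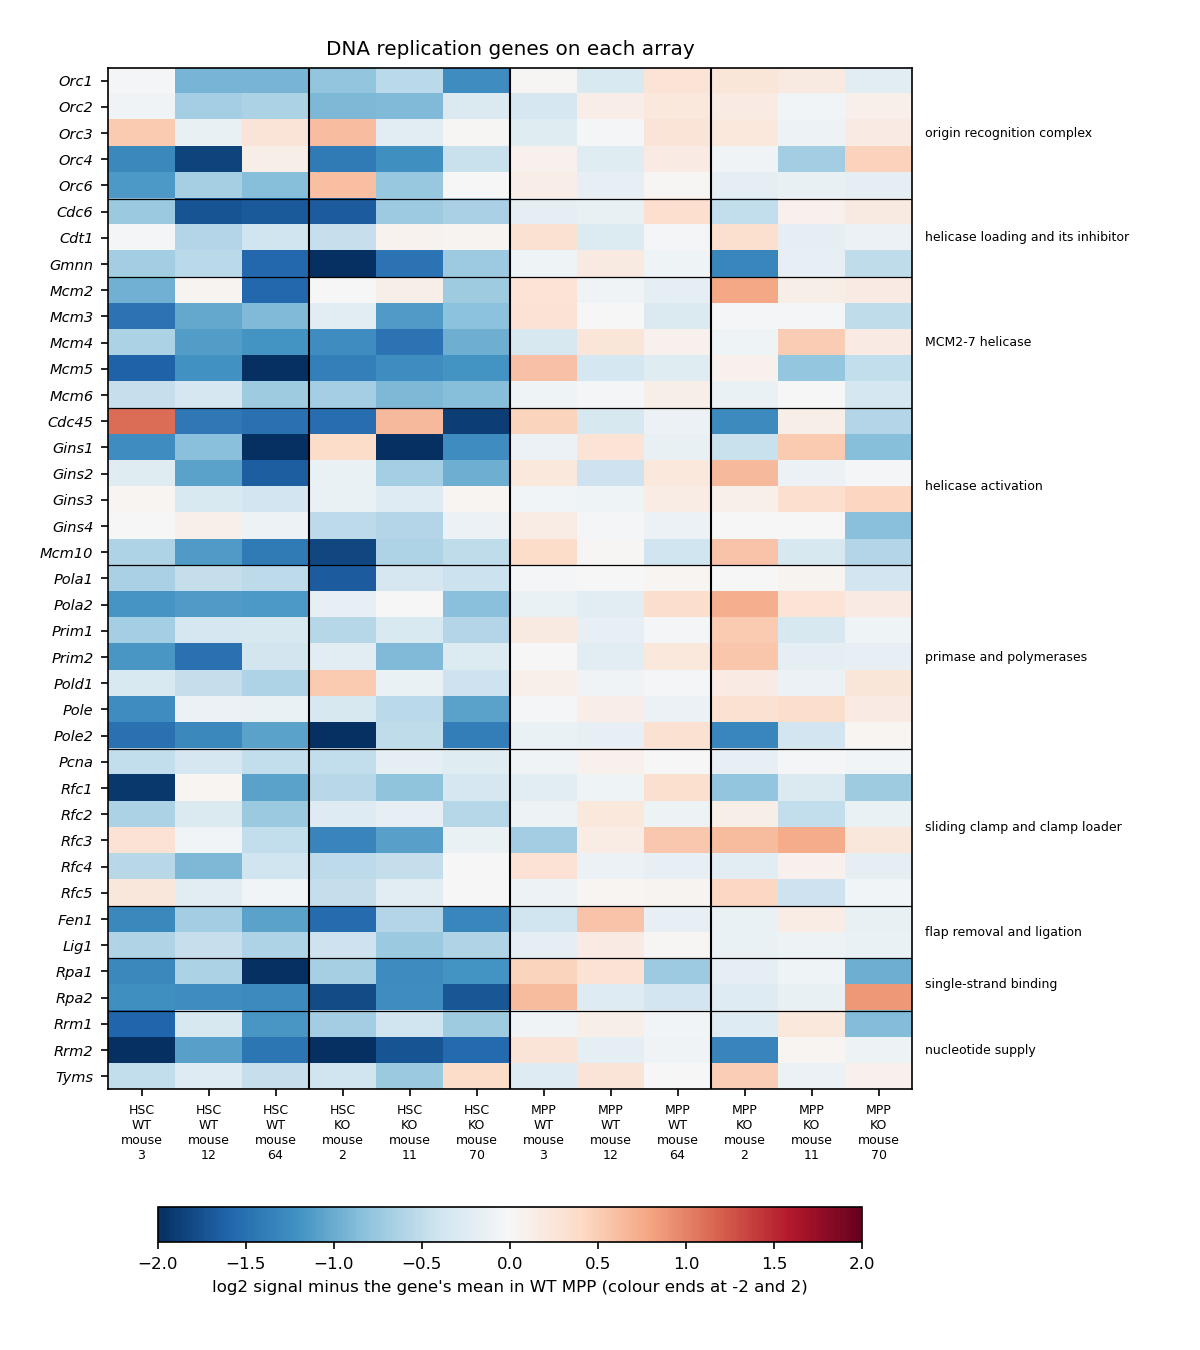
Log2 signal of 39 replication genes on each of the 12 arrays (columns, by population, genotype and mouse), as the difference from the gene's own mean in WT MPP; rows are genes ordered by role, blue is lower and red is higher, and colours end at -2 and 2. The 6 HSC columns on the left are mostly blue, with exceptions such as Cdc45 in WT mouse 3 and Orc3, and the 6 MPP columns are pale.

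Taken mouse by mouse, the difference HSC minus MPP was below 0 for most genes in every animal. The median over the 39 genes was -0.62, -0.64 and -0.88 in WT mice 3, 12 and 64, with 33, 36 and 38 genes lower in HSC. It was -0.77, -0.59 and -0.39 in KO mice 2, 11 and 70, with 34, 33 and 30 genes lower. Over all genes tested the medians per mouse lay between 0.017 and 0.075 and 43.7% to 48.6% of genes were lower in HSC. Of the 39 genes, 20 were lower in HSC in all 6 mice (51.3%, against 6.19% of the genes tested), 11 in 5 mice, 5 in 4 mice and 3 in 3 mice. No member was lower in fewer than 3 mice.

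Estimated over both genotypes, with 6 HSC arrays against 6 MPP arrays in the limma fit of all 4 groups, 10 of the 39 genes passed an adjusted p of 0.05, all lower in HSC (25.6%; 4.85% of the genes tested passed in either direction and 2.92% as lower). The median difference was -0.68 log2, against 0.05 over the genes tested. The estimate was below 0 for 38 genes (42.8% of genes tested), and 30 had an unadjusted p under 0.05 with a lower value in HSC (10.0%). The 10 genes that passed were Mcm3, Mcm4, Mcm5 and Mcm6 of the helicase, Cdc6, Pola2, Fen1, Lig1, Rpa2 and Rrm2, and each was lower in HSC in 6 of 6 mice. The groups did not overlap for 8 genes (2.36% of genes tested were as cleanly lower): Mcm4, Mcm5, Cdc6, Fen1, Lig1 and Rpa2 among those that passed, and Pcna and Prim2 among those that did not.

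The count rested in part on single mice. It was 4 without WT mouse 64, 6 without KO mouse 11, 6 without KO mouse 70, and 7 to 11 without any 1 of the others. Mcm4, Mcm5, Rpa2 and Rrm2 passed in all 15 other settings that were run. With the mouse as a block, which compares the 2 populations within each animal, 10 genes passed as well, of which 7 were the same. The other 3 in that limma fit were Pole2 (adjusted p = 0.0287), Rpa1 (0.0344) and Prim2 (0.0445), while Lig1 (0.0518), Mcm6 (0.0604) and Mcm3 (0.0769) no longer did.

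**Figure D2:**
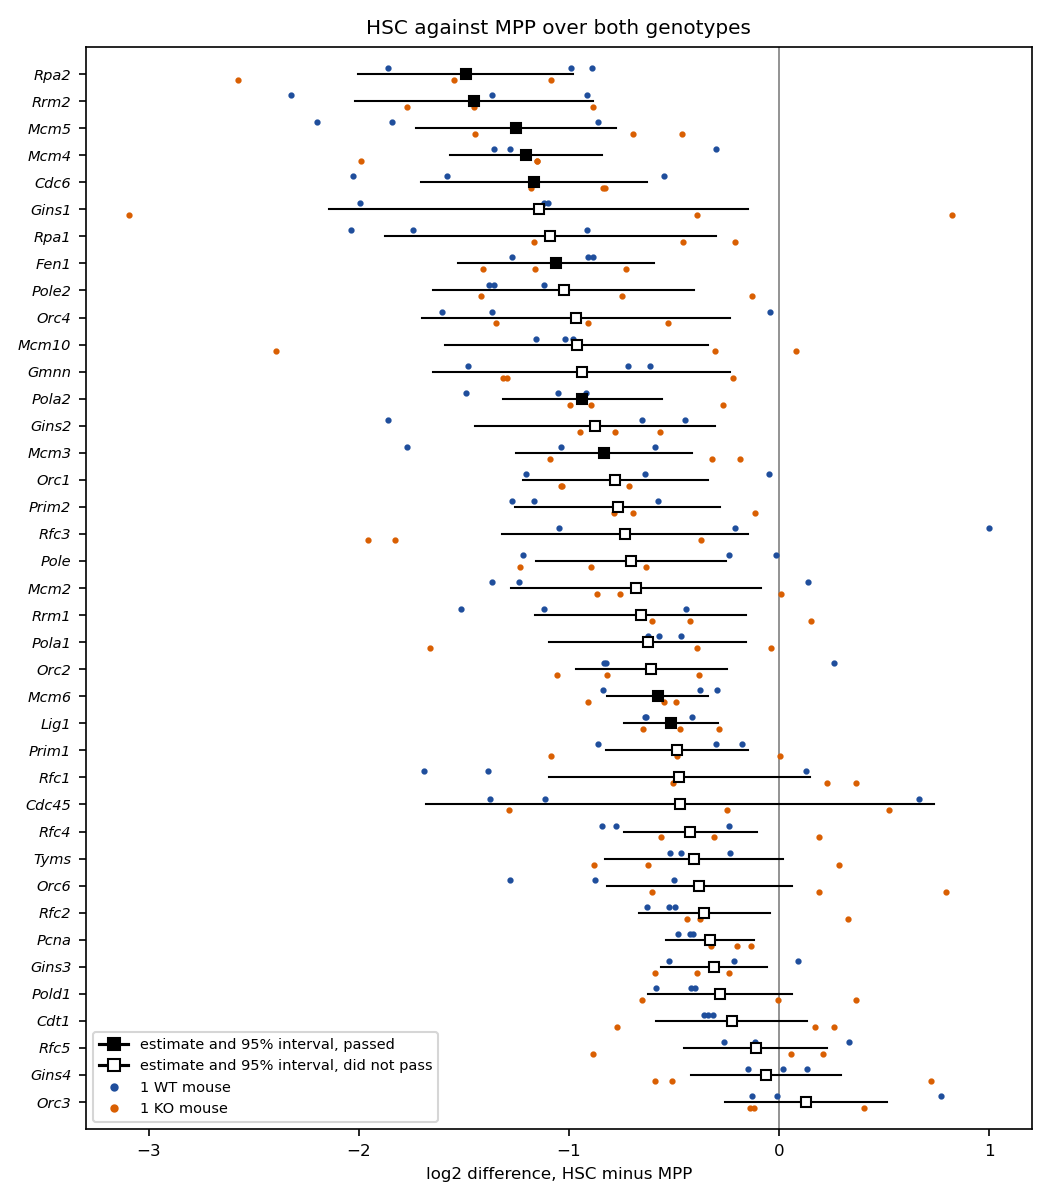
Difference in log2 signal, HSC minus MPP, for 39 replication genes ordered by size: squares are estimates over both genotypes with 95% intervals from limma, filled where the adjusted p was under 0.05, and dots are single mice (blue WT, orange KO). The intervals of the 10 filled genes lie wholly below 0, and Orc3 alone has an estimate above 0.

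The helicase ring showed the difference in most of its subunits. MCM2 to MCM7 form 1 hexamer that unwinds DNA ahead of the fork; 5 of the 6 subunits were measured, with a median of -0.83, and 4 passed. Mcm4 signal was 7.61, 7.12 and 7.04 in WT HSC and 6.99, 6.76 and 7.26 in KO HSC, against 7.91, 8.48 and 8.32 in WT MPP and 8.15, 8.75 and 8.41 in KO MPP. Every HSC array was below every MPP array, and the difference over both genotypes was -1.20 log2 (SE 0.16, limma adjusted p = 0.00189), a level of 43.4% of that in MPP. Mcm5 signal was 6.99, 7.39 and 6.52 in WT HSC and 7.23, 7.36 and 7.40 in KO HSC, against 9.19, 8.25 and 8.36 in WT MPP and 8.68, 7.82 and 8.10 in KO MPP. The Mcm5 groups were also apart, with a difference of -1.25 (SE 0.22, limma adjusted p = 0.00718).

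Mcm3 and Mcm6 fell too, with overlap between some arrays. Mcm3 signal was 7.37, 7.82 and 7.97 in WT HSC and 8.65, 7.72 and 8.03 in KO HSC, against 9.14, 8.86 and 8.56 in WT MPP and 8.83, 8.82 and 8.35 in KO MPP. Only KO mouse 2 had an HSC value inside the MPP range, and the difference was -0.83 (SE 0.19, limma adjusted p = 0.0291). Without WT mouse 3 the Mcm3 difference was -0.67 and the adjusted p 0.136, without WT mouse 12 the p was 0.106, without KO mouse 11 it was 0.124, without KO mouse 70 it was 0.0650 and without WT mouse 64 it was 0.0531. With a second quantile normalization the difference was -0.73 and the limma adjusted p 0.0752. Mcm6 ran from 9.48 to 10.04 in HSC and from 10.02 to 10.50 in MPP, where only the lowest MPP array, of KO mouse 70, reached the HSC range. Its difference was -0.58 (SE 0.11, limma adjusted p = 0.0122), and the p was 0.0770 without WT mouse 64 and 0.0712 without KO mouse 11. Mcm2 did not pass: its difference was -0.68 (95% interval -1.28 to -0.09, limma adjusted p = 0.194) with 4 of 6 mice lower in HSC. Its HSC values of 7.62 in WT mouse 12, 7.57 in KO mouse 2 and 7.68 in KO mouse 11 lay among the MPP values of 7.36 to 8.33, and its lowest value was 5.99 in WT mouse 64.

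Upstream of the helicase, the origin recognition complex marks the start sites and none of its 5 measured subunits passed over both genotypes. Orc1, the largest subunit, came nearest, at 7.06, 6.15 and 6.15 in WT HSC and 6.29, 6.55 and 5.84 in KO HSC, against 6.79 to 7.36 in the 6 MPP samples. WT mouse 3 was the HSC sample inside the MPP range. Its difference was -0.78 (SE 0.20, limma adjusted p = 0.0514) with 6 of 6 mice lower. Orc2 had -0.61 (adjusted p = 0.0621), Orc4 -0.97 (0.140) and Orc6 -0.38 (0.323). Orc3 was the only member with an estimate above 0, at 0.13 (95% interval -0.26 to 0.51), and its HSC values of 9.27 to 10.11 enclosed the MPP values of 9.25 to 9.76 almost fully.

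Among the loading factors Cdc6, the ATPase that brings the helicase to the origin, was lower in HSC. Its signal was 7.82, 6.82 and 6.87 in WT HSC and 6.89, 7.82 and 7.90 in KO HSC, against 8.37, 8.40 and 8.89 in WT MPP and 8.07, 8.65 and 8.74 in KO MPP. The highest HSC array lay below the lowest MPP array, and the difference was -1.17 (SE 0.24, limma adjusted p = 0.0195). That call was lost without WT mouse 64 (adjusted p = 0.115), WT mouse 12 (0.0863), KO mouse 11 (0.0664) or KO mouse 70 (0.0542). Cdt1, its partner in loading, had -0.23 (95% interval -0.58 to 0.13) with 4 of 6 mice lower. Gmnn, which encodes geminin, the inhibitor of Cdt1, had -0.94 (95% interval -1.65 to -0.23, limma adjusted p = 0.137) with 6 of 6 mice lower and a wide spread, from 4.42 to 6.47 in HSC and from 5.71 to 7.19 in MPP.

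None of the 6 helicase activation factors passed, and Cdc45 and Gins1 varied widely between mice. Cdc45, which joins the MCM ring to switch it on, had 8.79, 6.24 and 6.18 in WT HSC and 6.15, 8.32 and 5.80 in KO HSC. WT mouse 3 and KO mouse 11 stood more than 2 log2 units above the other 4 HSC arrays, while the MPP values ran from 6.40 to 8.12. The difference was -0.47 with a 95% interval of -1.68 to 0.74. Gins1 had the widest range in KO HSC, at 8.85, 5.90 and 7.23 in mice 2, 11 and 70, against 8.21 ± 0.71 in KO MPP (mean ± SD, n = 3), and a difference of -1.14 (limma adjusted p = 0.192). When HSC from KO mouse 2 were left out, Gins1 was among 11 genes that passed. Gins2 had -0.88 (adjusted p = 0.0878) with 6 of 6 mice lower, Mcm10 -0.96 (0.0877) with 5 of 6, and Gins3 -0.31 (0.166). Gins4 was nearly level, at -0.064 with a 95% interval of -0.42 to 0.29, although it sits in the same GINS complex.

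Primase and the replicative polymerases gave 1 gene of 7 that passed, Pola2, the accessory subunit of polymerase alpha. Its signal was 6.04, 6.09 and 6.08 in WT HSC and 7.06, 7.23 and 6.39 in KO HSC, against 7.09, 7.01 and 7.57 in WT MPP and 7.95, 7.50 and 7.39 in KO MPP. The WT HSC values lay within 0.05 of each other and below all others, while KO mice 2 and 11 reached the lowest WT MPP values. The difference over both genotypes was -0.94 (SE 0.17, limma adjusted p = 0.0101), and its adjusted p was 0.0600 without WT mouse 64. Pola1, the catalytic subunit, had -0.63 (adjusted p = 0.133), and the primase subunits Prim1 and Prim2 had -0.48 (0.109) and -0.77 (0.0800). Prim2 had no overlap between HSC, at 5.45 to 6.71, and MPP, at 6.72 to 7.49, but by a margin near 0. The leading strand polymerase epsilon had -0.71 for Pole (0.0830) and -1.03 for Pole2 (0.0681), each lower in 6 of 6 mice, and Pold1 of polymerase delta had -0.28 (0.347).

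The sliding clamp and its loader had a median of -0.39 over 6 genes, and none passed. Pcna, the ring that tethers the polymerases, had 11.05, 11.20 and 11.04 in WT HSC and 11.04, 11.36 and 11.29 in KO HSC, against 11.46, 11.62 and 11.52 in WT MPP and 11.36, 11.49 and 11.48 in KO MPP. HSC were lower in every mouse, by differences from -0.48 to -0.13. The margin between the groups was narrow, at 11.355 for HSC of KO mouse 11 and 11.365 for MPP of KO mouse 2. The difference over both genotypes was -0.33 (95% interval -0.54 to -0.12, limma adjusted p = 0.0779), a level of 79.6% of that in MPP. The 5 clamp loader subunits Rfc1 to Rfc5 did not pass, with differences from -0.73 for Rfc3 to -0.11 for Rfc5. Rfc5 had a 95% interval of -0.45 to 0.23 and was lower in 3 of 6 mice.

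Both enzymes that finish the lagging strand were lower in HSC. Fen1, the nuclease that removes the primer flap, had 5.33, 5.92 and 5.54 in WT HSC and 5.08, 6.04 and 5.31 in KO HSC, against 6.21, 7.19 and 6.45 in WT MPP and 6.49, 6.77 and 6.47 in KO MPP. Lig1, the ligase that seals the nick, had 8.78, 8.92 and 8.77 in WT HSC and 8.97, 8.64 and 8.78 in KO HSC, against 9.19, 9.55 and 9.41 in WT MPP and 9.26, 9.29 and 9.25 in KO MPP. Neither gene had an HSC array inside the MPP range. Fen1 fell by 1.06 (SE 0.21, limma adjusted p = 0.0161) to 47.9% of the MPP level and Lig1 by 0.51 (SE 0.10, limma adjusted p = 0.0147). The Fen1 call was lost without WT mouse 64 (adjusted p = 0.0735), KO mouse 2 (0.0608) or KO mouse 70 (0.0666). The Lig1 call was lost without WT mouse 64 (0.0882), WT mouse 12 (0.0559), KO mouse 11 (0.0763) or KO mouse 70 (0.0651).

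Replication protein A coats the unwound strands. Rpa2 signal was 7.10, 7.09 and 7.06 in WT HSC and 6.54, 7.10 and 6.62 in KO HSC, against 8.96, 8.08 and 7.96 in WT MPP and 8.08, 8.19 and 9.20 in KO MPP. The highest HSC value was 7.10 and the lowest MPP value 7.96. The difference was -1.49 (SE 0.23, limma adjusted p = 0.00403), a level of 35.6% of that in MPP and the lowest estimate among the 39 genes. Rpa1, the large subunit, had -1.09 (95% interval -1.88 to -0.30, limma adjusted p = 0.122) with 6 of 6 mice lower. Among WT arrays mouse 64 had its lowest value in HSC, at 6.03, and in MPP, at 8.07. The lowest MPP value of all was 7.83, in KO mouse 70.

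Of the genes for nucleotide supply, Rrm2, the S phase subunit of ribonucleotide reductase, passed. Its signal was 6.18, 7.15 and 6.81 in WT HSC and 6.04, 6.52 and 6.70 in KO HSC, against 8.50, 8.07 and 8.17 in WT MPP and 6.93, 8.29 and 8.15 in KO MPP. The MPP array of KO mouse 2 was the only MPP value inside the HSC range. The difference was -1.45 (SE 0.26, limma adjusted p = 0.00831), a level of 36.6% of that in MPP. Rrm1, the large subunit, had -0.66 (adjusted p = 0.140), and Tyms, which makes thymidylate, had -0.41 (0.274).

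**Figure D3:**
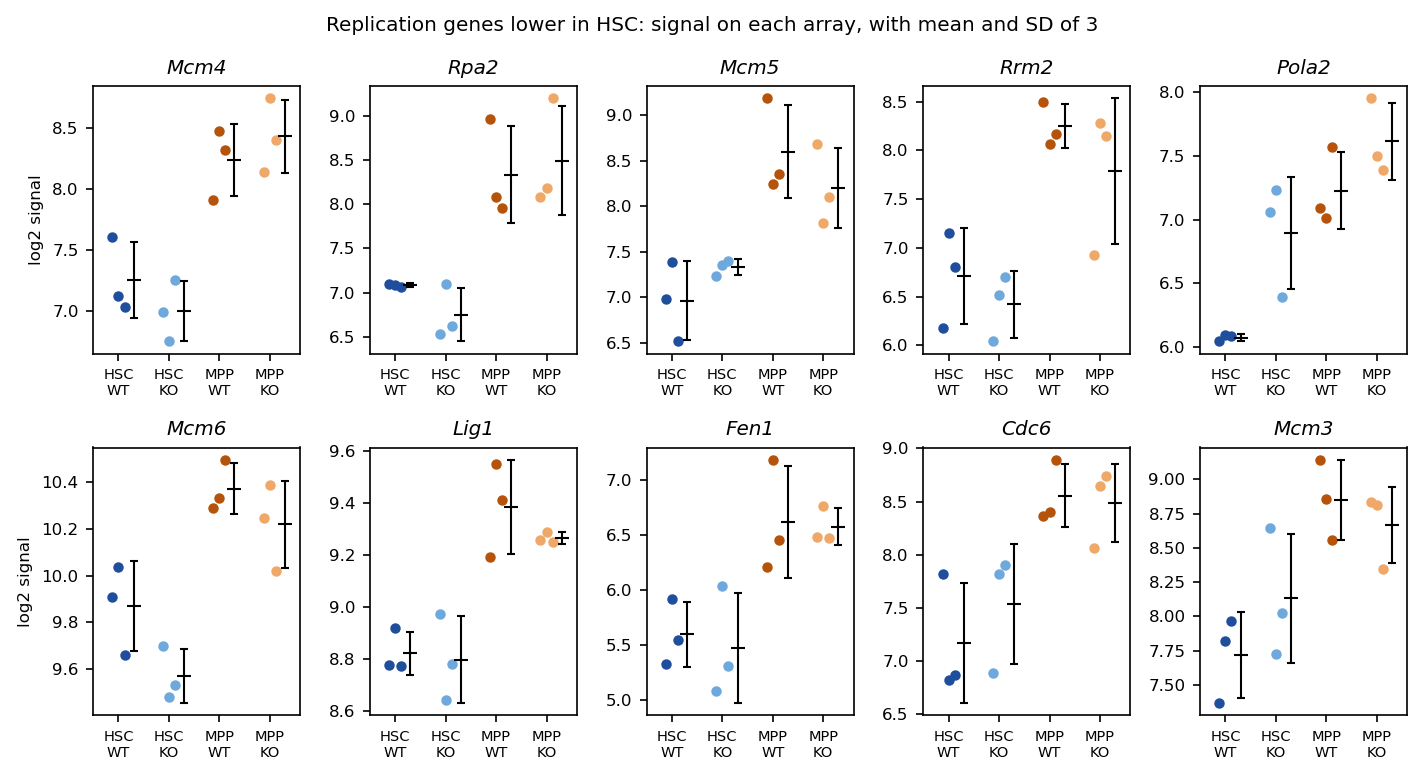
Log2 signal of the 10 replication genes that were lower in HSC over both genotypes, by population and genotype: dots are single mice (3 per group) and bars are the group mean ± SD, with a separate vertical axis for each gene that does not start at 0. In Mcm4, Mcm5, Rpa2, Lig1, Fen1 and Cdc6 every HSC dot lies below every MPP dot, and Pola2 shows KO HSC dots above the WT HSC dots.

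Within each genotype alone, with 3 mice, few genes passed. In WT, 2 of 39 passed, both lower in HSC (5.13%; 2.07% of genes tested in either direction, 1.32% as lower). They were Mcm5, with -1.63 (SE 0.30, limma adjusted p = 0.0228), at 32.2% of the MPP level, and Pola2, with -1.15 (SE 0.24, limma adjusted p = 0.0391), at 45.0%. Mcm3 at -1.13 and Mcm4 at -0.98 (both limma adjusted p = 0.0604) and Rrm2 at -1.53 (0.0626) followed without passing. The median over the 39 genes was -0.82 against 0.03 over the genes tested, 38 estimates were below 0 (45.8%), 22 genes were lower at an unadjusted p under 0.05 (7.75%), and 24 had HSC values wholly below MPP values (10.3%). The count was 0 without WT mouse 3, 0 without WT mouse 64, 1 without WT mouse 12, KO mouse 11 or KO mouse 70, 4 when only HSC from KO mouse 2 were left out and 6 without either array of that mouse. It was 7 with array weights and 0 with the mouse as a block, where Mcm5 had an adjusted p of 0.0677 and Pola2 of 0.0608. With only the 6 arrays compared 2 genes passed in limma, Pola2 (adjusted p = 0.0405) and Pole2, and Mcm5 did not (0.0636).

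In KO, 2 of 39 passed, again both lower (1.26% of genes tested in either direction, 0.739% as lower), and they were Mcm4 and Rpa2. Mcm4 had -1.43 (SE 0.23, limma adjusted p = 0.0147), at 37.1% of the MPP level, and Rpa2 -1.74 (SE 0.33, limma adjusted p = 0.0300), at 30.0%. Mcm6 at -0.65 (limma adjusted p = 0.0794), Rrm2 at -1.37 (0.116) and Rfc3 at -1.38 (0.123) came next. The median was -0.61 against 0.05, 36 estimates were below 0 (42.9%), 16 genes were lower at an unadjusted p under 0.05 (6.31%), and 17 had HSC values wholly below MPP values (7.33%). The count was 0 without any 1 of the KO mice, 0 when only HSC from KO mouse 2 were left out, 1 without WT mouse 12 or WT mouse 64, 0 with only the 6 arrays compared, and 0 with the mouse as a block (Mcm4 0.0900, Rpa2 0.0835). That different genes passed in WT and in KO is no difference between the genotypes, which the interaction tests.

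**Figure D4:**
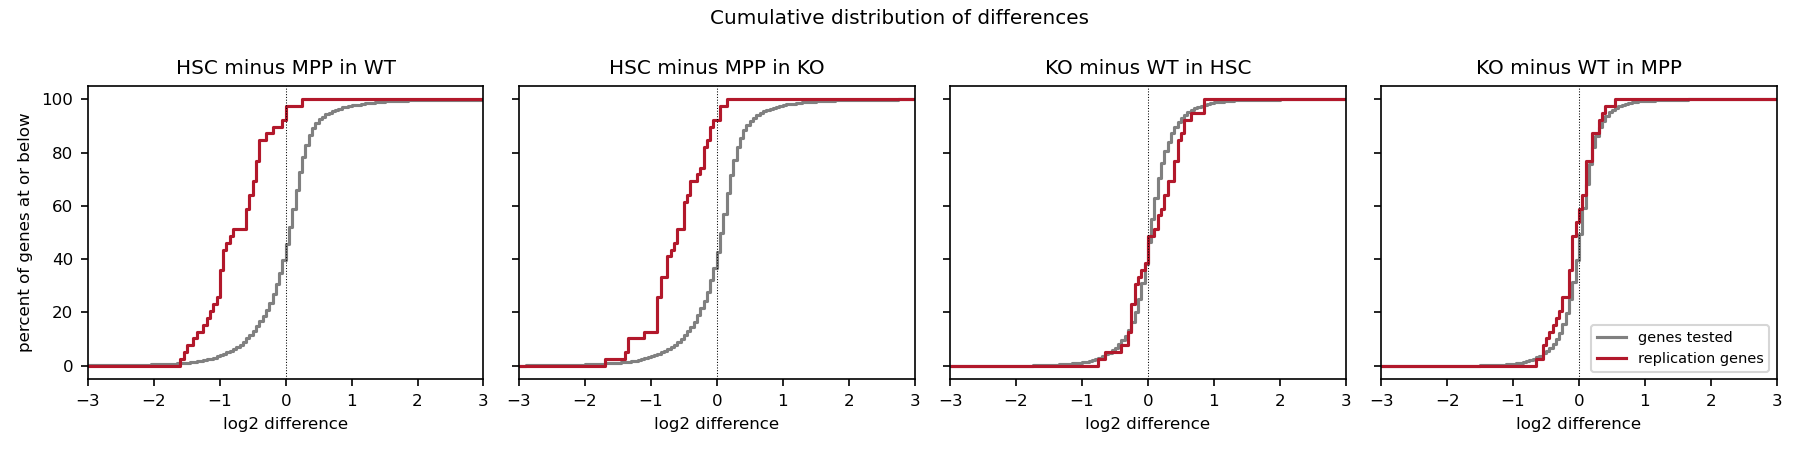
Cumulative share of genes (percent, vertical axis) at or below each log2 difference (horizontal axis) for the 39 replication genes (red) and the 14620 genes tested (grey), in 4 comparisons. In both HSC minus MPP panels the red curve lies to the left of the grey one, with medians of -0.82 in WT and -0.61 in KO; in the KO minus WT panels the curves run close together, with medians of 0.07 in HSC and -0.09 in MPP.

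The comparison of KO with WT asked what the loss of NFAT5 did to these genes in each population. In HSC, 0 of 39 passed in limma, as did 0 of all genes tested (0%). At an unadjusted p under 0.05 there were 2 of 39 (5.13%), against 6.29% of genes tested, both higher in KO. Pola2 was 0.82 higher (95% interval 0.29 to 1.36, limma adjusted p = 0.638), with KO values of 7.06, 7.23 and 6.39 all above the WT values of 6.04, 6.09 and 6.08. Orc6 was 0.84 higher (95% interval 0.22 to 1.46, limma adjusted p = 0.691), with 9.47, 8.12 and 8.88 in KO against 7.72, 8.21 and 8.01 in WT, so that KO mouse 11 lay inside the WT range. Pold1 at 0.46 (0.806), Rfc3 at -0.76 (0.808) and Mcm6 at -0.30 (0.833) came next. The mean of the T and NK cell markers was also apart here, at 4.87 to 4.94 in WT HSC and 5.10 to 5.25 in KO HSC. Within that list Nkg7 had 5.94 in WT HSC and 6.68 in KO HSC, Klrb1c 3.83 and 4.17 and Cd3g 3.32 and 3.67. Cd3e had 5.15 and 5.38, Cd8a 5.62 and 5.75, Cd4 6.31 and 6.42 and Ncr1 4.21 and 4.20. The mean of the compartment markers Kit, Cd34 and Ptprc (3 of 4 measured) was apart too, at 8.95 to 9.29 and 9.56 to 9.80. Among them Ptprc had 7.83 in WT HSC and 8.75 in KO HSC, Cd34 9.08 and 9.71 and Kit 10.44 and 10.52. Ly6a, also on that list, had no named probe set. The part of either list in these differences was not tested. The median over the 39 genes was 0.07 against 0.02, with 19 estimates below 0 (46.6% of genes tested). Groups did not overlap for 2 genes (8.87% of genes tested), Pola2 and Gins4, the latter lower in KO by an estimate of -0.41 (95% interval -0.91 to 0.10).

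In MPP, 0 of 39 passed in limma (0% of genes tested) and 0 had an unadjusted p under 0.05, against 3.19% of genes tested. The interval of each of the 39 differences held 0. The smallest unadjusted p belonged to Gins3 at 0.29, Pola2 at 0.39, Rfc1 at -0.60, Gmnn at -0.66 and Rfc3 at 0.53. The median was -0.09 against 0.00, and 23 estimates were below 0 (49.5%). Groups did not overlap for 3 genes (9.49% of genes tested): Rfc1 and Gmnn, with KO below WT, and Pole, with KO above WT by 0.27. The mean of the HSC markers (9 of 10 measured) did not overlap in MPP either, with 6.88 to 7.03 for KO and 6.73 to 6.84 for WT. Within that list Mecom had 8.58 in WT MPP and 9.23 in KO MPP, and Ctnnal1 had 4.80 and 5.39. Fgd5 had 5.94 and 6.16, Meis1 10.07 and 10.27 and Hlf 9.46 and 9.62. Vwf had 5.01 and 5.07, Hoxb5 6.11 and 6.12, Procr 5.18 and 5.17 and Slamf1 5.80 and 5.55. The part of these markers in the values of the replication genes was not tested. For Gmnn the KO values were 5.71, 6.85 and 6.50 and the WT values 6.92, 7.19 and 6.92.

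These intervals set what the arrays could have shown. In HSC the interval of Mcm4 was -0.76 to 0.26, of Mcm5 -0.31 to 1.04, of Pcna -0.16 to 0.43 and of Lig1 -0.34 to 0.29, while that of Cdc45 spanned -2.02 to 1.40. In MPP that of Mcm4 was -0.31 to 0.70, of Pcna -0.38 to 0.20 and of Lig1 -0.43 to 0.19. For Pcna and Lig1 a change of 1 log2 unit lay outside the interval in both populations, and for Cdc45 and Gins1 it lay inside.

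**Figure D5:**
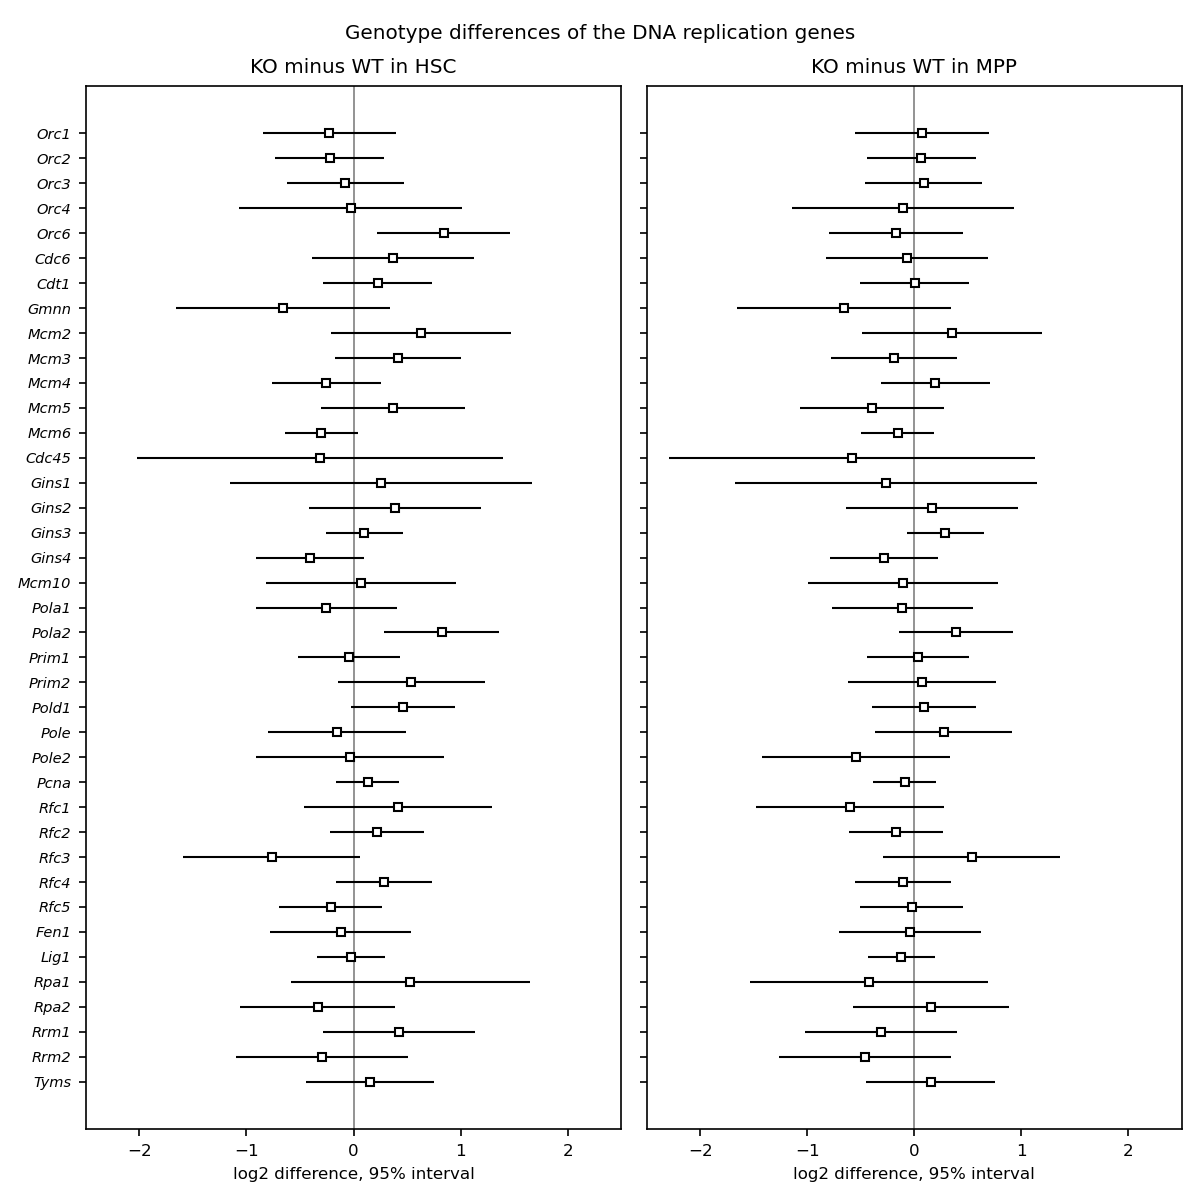
Difference in log2 signal, KO minus WT, with 95% intervals from limma for 39 replication genes in HSC (left) and MPP (right), ordered by role. In HSC the intervals of Orc6 and Pola2 lie above 0 before adjustment, at 0.22 to 1.46 and 0.29 to 1.36, and in MPP all 39 intervals include 0.

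The interaction, the difference KO minus WT in HSC minus that in MPP, tested whether the populations differed in their response. Again 0 of 39 passed in limma (0% of genes tested), and 2 had an unadjusted p under 0.05 (5.13%, against 4.50% of genes tested). Orc6 had an estimate of 1.01 (95% interval 0.13 to 1.89) and Rfc3 of -1.30 (95% interval -2.47 to -0.13), each with a limma adjusted p of 0.9996. Rfc3, a clamp loader subunit, had 7.92, 7.57 and 7.12 in WT HSC and 6.30, 6.53 and 7.49 in KO HSC, against 6.92, 7.78 and 8.17 in WT MPP and 8.25, 8.36 and 7.86 in KO MPP. Both pairs of groups overlapped. Rfc1 at 1.01, Mcm5 at 0.77 and Rrm1 at 0.73 followed, all with intervals that held 0. The median of the interaction was 0.18 against 0.01 over the genes tested, with 16 estimates below 0 (48.2%).

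The median SD of the replication genes within a group was larger than that of the genes tested. It was 0.31 in WT HSC, 0.37 in KO HSC, 0.25 in WT MPP and 0.31 in KO MPP, against 0.26, 0.27, 0.22 and 0.23 over the genes tested. In WT HSC the largest SD belonged to Cdc45 (1.49) and the smallest to Rpa2 (0.020). In KO HSC they belonged to Gins1 (1.47) and Mcm5 (0.088). Members with an SD above 0.5 numbered 13 in WT HSC, 12 in KO HSC, 5 in WT MPP and 9 in KO MPP. These SDs are a description, as no test compared them and the sets were not matched for level. The replication genes were brighter, with group means of 7.65 to 8.42 against 6.79 to 6.82 over the genes tested.

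E2F-type letters stood in promoters of genes that passed and of genes that did not. Of 9 genes that passed and had a promoter, 5 held an E2F-type word (Mcm3, Mcm5, Mcm6, Cdc6 and Lig1), and of 22 tested genes that did not pass, 8 did. The median difference HSC minus MPP over both genotypes was -0.63 for the 13 tested genes with such a word and -0.63 for the 18 without. It was -0.56 and -0.93 in WT, and -0.65 and -0.53 in KO; no test compared these medians. Rpa2 and Rrm2, with the lowest estimates, had none in the window, as shown in the sequences above. The absence says only that these letters are not in this stretch.

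Around the core machinery, 58 further replication genes were listed (firing kinases, fork protection, chromatin assembly, accessory subunits and S phase regulators), of which 56 were tested. Over both genotypes 15 were lower in HSC and 0 higher, with a median of -0.62 and 46 estimates below 0, where 2.92% of the genes tested passed as lower and 42.8% were below 0. Those with the lowest p were Clspn, the checkpoint adaptor (-1.22, limma adjusted p = 0.000554), the histone chaperone gene Nasp (-1.33), Top2a, the topoisomerase (-1.37), Uhrf1, which guides maintenance methylation (-0.95), E2f8 (-1.60) and Rbl1 (-1.53), both repressors of E2F targets, Dtl (-1.32), which helps destroy Cdt1, and the fork protection gene Tipin (-0.62). In WT, 6 passed as lower and 0 as higher: Top2a at -1.78, Uhrf1 at -1.21, Nasp at -1.46, Clspn at -0.95, Dtl at -1.56 and Ticrr, a firing factor, at -1.64 (1.32% of genes tested passed as lower). In KO, Clspn at -1.50 and Atad5, which unloads PCNA, at -2.18 passed (0.739%). These counts moved with the setting. Over both genotypes 8 of the 15 passed with the mouse as a block, and the count was 7 without WT mouse 64 and 9 without WT mouse 12 or KO mouse 70. In WT 4 of the 6 passed with the block, and the count was 0 without WT mouse 3 or WT mouse 64, 2 without KO mouse 70, 3 without WT mouse 12 and 1 with only the arrays compared. In KO Clspn passed with the block and Atad5 did not, and the count was 1 without WT mouse 12, WT mouse 64, KO mouse 2 or KO mouse 11. Between KO and WT, 0 of the 56 passed in limma in HSC, with a median of 0.03. At an unadjusted p under 0.05 there were 7 (12.5%, against 6.29% of genes tested), 4 lower and 3 higher in KO. The 4 lower genes were all among the 8 for fork protection and checkpoint, whose median was -0.45, and no test was run on that list. In MPP 0 passed, with a median of -0.06 and 2 at that p (3.57%, against 3.19%). The interaction gave 0, with a median of 0.15 and 5 at that p (8.93%, against 4.50%).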

How the data were processed

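The deposited log2 intensities are per probe set. The authors normalized them with RMA, according to the submitters' processing notes, where limma is named as well; the sources used here give no version of either. Per the labels' protocols, NuGEN kits amplified 300 pg of RNA from each sample and added biotin. RMA gives all arrays 1 distribution, so a shift shared by all genes would be removed. Differences of weak genes can be compressed in such values, which was not tested. Neither scanner output nor calls of detection entered the fits, and the number of arrays limits precision.

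The values covered 22142 probe sets, of which 19527 had 1 symbol, 0 had several and 2615 were unnamed. For 33 genes with more than 1 probe set, none of them a replication gene, the brightest on average was taken, which gave 19494 genes. A filter on the mean over all arrays removed the lowest 25% (4874 genes, below 4.96), leaving 14620. All 39 measured members passed it.

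A single limma fit of 4 group means to 12 arrays (limma 3.58.1 and statmod 1.5.0 under R 4.3.3) gave moderated tests, all two-sided. Their p-values were adjusted by Benjamini-Hochberg over the 14620 genes of each comparison. Genes with an adjusted p under 0.05 are said to have passed. Intervals are 95%, unadjusted. The value over both genotypes is the mean of the differences in WT and in KO and uses the same arrays, and the comparisons of KO with WT share arrays with those of HSC with MPP. A level given as a percent of MPP is 2 to the power of the difference. The script was tested on simulated data.

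The labels name the mouse of each sample, so an animal's HSC and MPP samples are paired. As a check, r across genes between the deviations of a mouse's 2 samples was 0.032 to 0.091. An alternative fit took the mouse as a block, fixed between populations and random for genotype (consensus correlation 0.0723). The filter (none, or 50%), the summary of probe sets (their mean), a repeated quantile normalization, the moderation of variances (trended, robust), weights for arrays and a fit to the compared arrays alone were varied too. Each mouse, and HSC from KO mouse 2, were left out in turn.

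The members, the further replication genes, the marker lists and the rules were chosen with earlier results of these data known. The text accounts for all members. Full statistics were given for those that passed in a comparison, at most 12 with the lowest p, or, if under 5 passed, values for the 5 of lowest p, and at most 8 further genes that passed were named. Promoters and their motifs were read from a RefSeq table of GRCm38.p6, matched by symbol.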

Additional observations from a re-analysis of the deposited data

How the results depend on the processing

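Of 35 named differences, 0 changed sign in any of 16 alternative settings, and of the 14 named differences that passed, 4 passed in every setting run for them (Mcm4, Mcm5, Rpa2 and Rrm2 over both genotypes). In WT, 2 genes passed; 7 passed with array weights, 0 with the mouse as a replicate block and 0 to 6 with 1 mouse or array left out. In KO, 2 passed; 0 passed with only the arrays compared, 0 with the block and 0 to 2 with 1 mouse or array left out. Over both genotypes, 10 passed, 10 with the block, 4 to 11 with 1 mouse or array left out and 9 to 11 in the other settings. The cause was not tested. The median over the genes ranged with 1 mouse or array left out from -0.82 to -0.67 in WT, from -0.12 to -0.0016 for KO against WT in MPP and from 0.056 to 0.27 for the interaction. For KO against WT and for the interaction 0 genes passed in every setting, block included. Using only the arrays compared does not apply to the estimate over both genotypes or to the interaction. The median of all genes moved between -0.029 and 0.064 over the settings. With the filter at 50%, 38 members were tested. Block values that changed a call stand beside the results, and the block changed no other call of the 39 genes. The settings were also run for the 56 further replication genes, a choice made after seeing the data. Over both genotypes 15 passed, 8 with the block and 7 to 12 with 1 mouse or array left out; in WT 6 passed, 1 with only the arrays compared and 0 to 6 with 1 mouse or array left out; in KO 2 passed, and 1 with the block, no filter, array weights or only the arrays compared, and 1 to 2 with 1 mouse or array left out. Differences of weak genes can be compressed, which was not tested, and 3 mice per genotype limit what could pass.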
